A study of Rattus norvegicus with 18 samples.

Results

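The genes described here are 9 components of blood vessel signalling: the vascular endothelial growth factor (VEGF) receptors Kdr and Flt1, the Flt1 ligand Pgf, the angiopoietins Angpt1 and Angpt2 with their receptor Tek, the endothelial secreted proteoglycan Esm1, and the peptide apelin (Apln) with its receptor Aplnr. They were chosen by gene symbol, and all 9 had a row among the 30735 genes of the count table. All 9 were also among the 18444 genes that passed the filter on low counts and were tested. Cerebral cortex RNA of 18 adult Sprague Dawley rats was sequenced, with 1 library per rat and 6 rats in each of 3 groups. In both SAH groups, subarachnoid hemorrhage (SAH, bleeding into the space around the brain) had been induced by pushing a filament through the wall of an intracranial artery, and the cortex was taken after 1 or 7 days. The sham group had the same neck surgery and filament without perforation. No time after surgery was given for it, so day and injury cannot be told apart against sham. The labels speak of cortex from both sides and the methods of the operated side, and the sex of the rats was not stated.

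VEGF-A acts mainly through Kdr (VEGFR2), while Flt1 (VEGFR1) binds VEGF-A tightly with weaker kinase activity and is the receptor for placental growth factor (Pgf). Angpt1, made largely by cells around the vessel, activates the receptor Tek (Tie2) and keeps vessels quiescent, whereas Angpt2, released by endothelial cells, competes for the same receptor in most settings and loosens contacts. Esm1 (endocan) and Apln are both known as products of endothelial tip cells, and Apln signals through Aplnr. In bulk cortex, fewer cells of a type and less RNA per cell cannot be told apart.

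The libraries held 27270026 to 38271014 counts, so 3 counts, the limit that a count of 0 allows, equalled 0.0761 to 0.114 CPM, a unit of counts scaled to a common library size after TMM normalization. Among endothelial markers, 9 of 10 had a row, Pecam1 had none under that symbol, and Cldn5 was listed at 0 in 11 of 18 libraries although it is abundant in brain endothelium, so it was no usable marker here. Neuron markers were abundant, with a summed level of 2485 to 9645 CPM over the libraries. A pair of libraries stood apart and are named throughout, SAH 1d-3 and SAH 7d-5. In SAH 1d-3 the 4 neutrophil markers summed to 41.9 CPM, against a median of 1.67 CPM in its group. SAH 1d-3 also had the highest endothelial markers of its group (522 CPM, group median 370 CPM) and the lowest neuron markers (4902 CPM, group median 5869 CPM). In SAH 7d-5 the 5 meningeal fibroblast markers summed to 3899 CPM, against a median of 277 CPM. SAH 7d-5 also had the lowest neuron markers (2485 CPM, group median 8135 CPM) and the highest microglia and macrophage markers (2304 CPM, group median 401 CPM). The choroid plexus markers summed to 716 CPM in SAH 1d-4 and 1037 CPM in SAH 1d-6, against a sham range of 1.98 to 64.7 CPM.

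The levels of the 9 genes were first compared per length, in FPKM, which scales the fragments of a gene by the length of its transcript and the mapped reads of its library. In the sham group, Apln had the highest mean level, 13.5 ± 2.65 FPKM (SD, n = 6), and was followed by the 3 receptor kinases Flt1 (8.24 ± 1.74 FPKM), Tek (6.71 ± 1.33 FPKM) and Kdr (2.98 ± 0.884 FPKM). The 2 angiopoietins lay lower, with Angpt2 at 1.72 ± 0.606 FPKM and Angpt1 at 1.06 ± 0.292 FPKM. Aplnr (0.660 ± 0.170 FPKM) and Pgf (0.639 ± 0.262 FPKM) came next, and Esm1 was close to undetected at 0.0524 ± 0.0397 FPKM. Neighbours in this order overlapped in their sham libraries except at 2 steps. The lowest Tek library (5.25 FPKM) was above the highest Kdr library (4.72 FPKM), and the lowest Pgf library (0.407 FPKM) was above the highest Esm1 library (0.118 FPKM).

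When SAH 1d was compared with sham, 3 of the 9 genes were DEGs (adjusted p under 0.05 and at least a 2-fold change, by edgeR's quasi-likelihood test with Benjamini-Hochberg adjustment over all tested genes), and all 3 were upregulated: Esm1, Angpt2 and Pgf. The receptors Kdr, Flt1, Tek and Aplnr, the ligand Angpt1 and Apln did not pass the test. Over all tested genes, 25.4% passed the adjusted p (14.9% upward), 6.64% were DEGs and 5.57% were upregulated DEGs. The median log2 fold change of the 9 genes was 0.34, against 0.01 over all tested genes. Compared by library, 1 of the 9 genes, Esm1, had SAH 1d libraries that all lay outside the sham range, as did 13.3% of all tested genes. Esm1 had at most 8 raw counts in any sham library and 10 to 983 in SAH 1d. It passed the filter on low counts mainly through SAH 1d, so its separation is no further support.

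**Figure D1:**
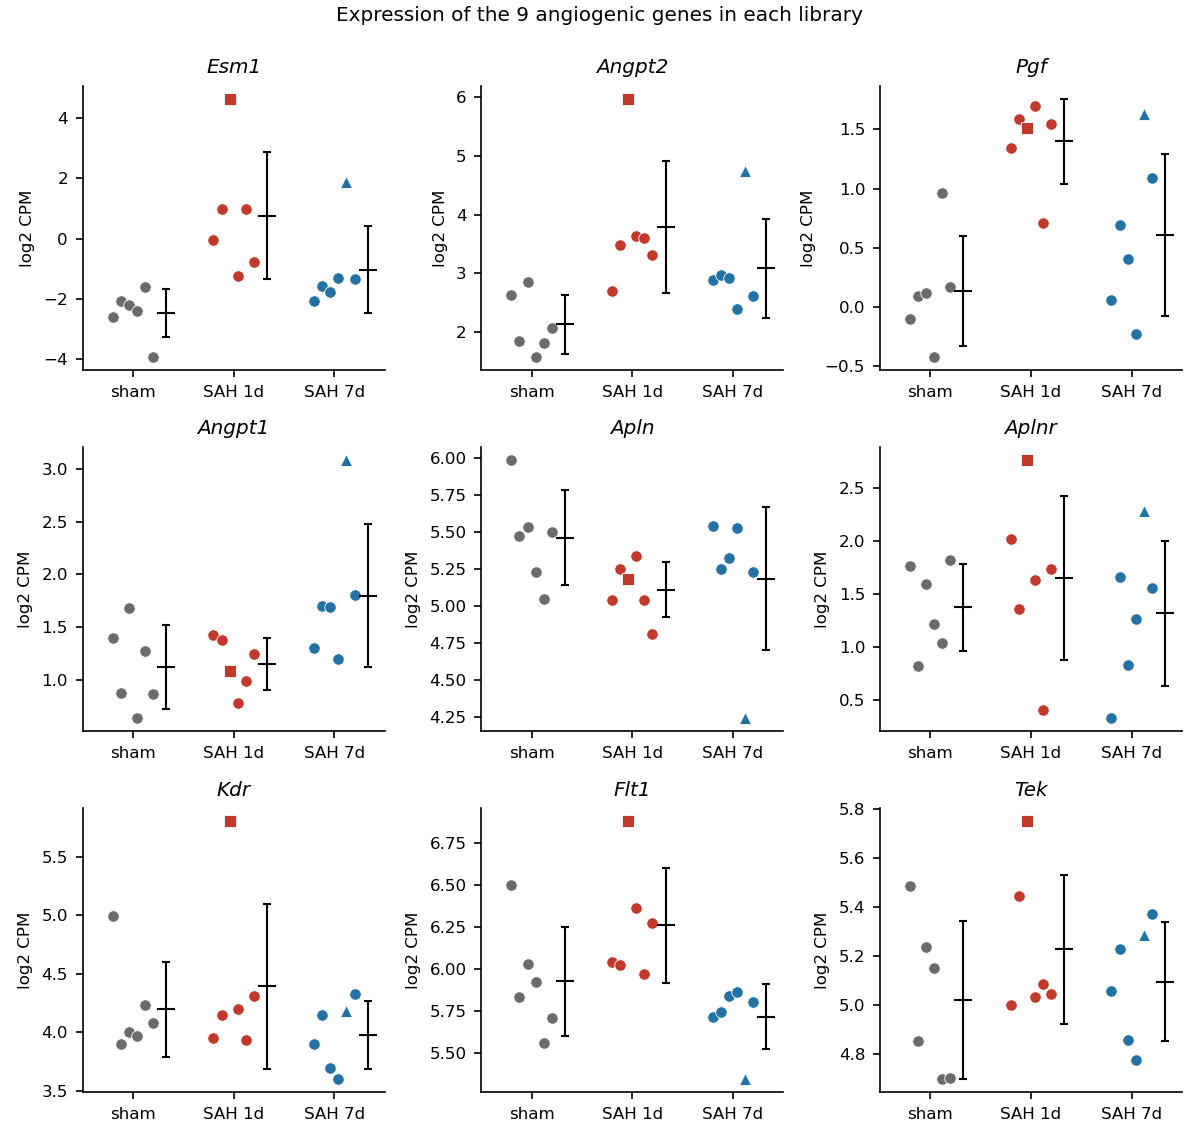
Log2 CPM (prior count of 2) of the 9 genes in each of the 18 libraries, with points for single rats and the black bar and whiskers for the mean ± SD of 6 libraries; the square marks SAH 1d-3 and the triangle SAH 7d-5. All 6 SAH 1d libraries are above all sham libraries for Esm1 and 5 of 6 for Angpt2 and Pgf, and the square and triangle are far from their groups in several panels.

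Esm1 encodes a secreted proteoglycan of activated endothelium. In the sham group it reached 0 to 0.265 CPM with a median of 0.138 CPM (0 to 8 raw counts), and in the SAH 1d group 0.358 to 24.9 CPM with a median of 1.41 CPM (10 to 983 raw counts). All 6 SAH 1d libraries were above all 6 sham libraries, and SAH 1d-3 was more than 10 times any other SAH 1d library. The low-count filter was passed mainly through the SAH 1d libraries, so this separation is no further support for the call. The log2 fold change was 5.21 ± 1.17 (SE, adjusted p = 0.00697 by edgeR). Without SAH 1d-3 it was 3.02 ± 0.59 (adjusted p = 0.00247 by edgeR), so the call did not rest on that library while the size did. With so few sham counts the size is imprecise, and on the log2(FPKM + 1) scale, which compresses low genes, the difference was 1.01 with an adjusted p of 0.111 by limma.

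Angpt2, the angiopoietin of endothelial cells, ranged from 2.90 to 7.16 CPM in the sham group (median 3.83 CPM) and from 6.43 to 62.4 CPM in the SAH 1d group (median 11.6 CPM). In 5 of 6 SAH 1d libraries it was above every sham library, and the exception, SAH 1d-1, was below the highest sham library only. The log2 fold change was 2.08 ± 0.52 (adjusted p = 0.0120 by edgeR), and without SAH 1d-3, which held the highest value, it was 1.19 ± 0.24 (adjusted p = 0.00297 by edgeR).

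Pgf, a VEGF family ligand that binds Flt1 and not Kdr, had 0.680 to 1.89 CPM in the sham group (median 1.01 CPM) and 1.57 to 3.19 CPM in the SAH 1d group (median 2.83 CPM). In 5 of 6 SAH 1d libraries Pgf was above every sham library. The overlap came from sham-5, the highest of its group, and SAH 1d-5, the lowest of its own. The log2 fold change was 1.28 ± 0.26 (adjusted p = 0.00378 by edgeR). For Pgf, unlike Esm1 and Angpt2, SAH 1d-3 was inside the range of the other SAH 1d libraries (2.79 CPM), and without it the log2 fold change was 1.26 ± 0.27 (adjusted p = 0.00379 by edgeR). All 3 calls also held without the choroid plexus-rich SAH 1d-4 and SAH 1d-6, with log2 fold changes of 5.75, 2.35 and 1.17 for Esm1, Angpt2 and Pgf.

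The other ligands did not pass the test at day 1. Angpt1 was at 1.48 to 3.15 CPM in the sham group (median 2.06 CPM) and 1.65 to 2.62 CPM in the SAH 1d group (median 2.18 CPM), so that every SAH 1d library lay inside the sham range. Its log2 fold change was 0.01 ± 0.21 (adjusted p = 0.983 by edgeR). Apln, whose level was the highest per length, was at 33.1 to 63.5 CPM in the sham group (median 44.9 CPM) and 28.1 to 40.5 CPM in the SAH 1d group (median 34.6 CPM), with 3 of 6 SAH 1d libraries below every sham library. It was the gene of the 9 with a negative log2 fold change at day 1, −0.37 ± 0.14, and its adjusted p of 0.0680 by edgeR missed the threshold. By DESeq2 (adjusted p = 0.0439) and by limma voom with quality weights (adjusted p = 0.0336) it was called lower. The log2 fold changes were −0.38 and −0.35. In this comparison limma voom with quality weights called 6502 of all 18444 tested genes. With each library left out in turn, the adjusted p of Apln was 0.0364 to 0.129 by edgeR.

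None of the 4 receptors passed the test at day 1. Kdr had 14.9 to 31.8 CPM in the sham group (median 16.4 CPM) and 15.3 to 55.9 CPM in the SAH 1d group (median 18.02 CPM). The highest sham value was sham-1 and the highest SAH 1d value SAH 1d-3, and the remaining libraries of both groups overlapped. The log2 fold change of Kdr was 0.33 ± 0.33 (adjusted p = 0.479 by edgeR) and turned to −0.13 ± 0.18 without SAH 1d-3. Flt1 had 47.0 to 90.7 CPM in the sham group (median 58.8 CPM) and 62.7 to 118 CPM in the SAH 1d group (median 71.7 CPM), with 1 SAH 1d library above every sham library. Its log2 fold change was 0.34 ± 0.18 (adjusted p = 0.177 by edgeR), and it passed without sham-1, at 0.48 (adjusted p = 0.0457 by edgeR). With each library left out in turn, Flt1 was at 0.19 to 0.48, with an adjusted p of up to 0.365 by edgeR. In those fits 3517 to 5252 of all 18444 tested genes passed. Tek was at 25.9 to 44.7 CPM in the sham group and 31.9 to 53.8 CPM in the SAH 1d group, with a log2 fold change of 0.21 ± 0.17 (adjusted p = 0.381 by edgeR). Aplnr, the apelin receptor, was at 1.69 to 3.47 and 1.26 to 6.75 CPM, with a log2 fold change of 0.41 ± 0.33 (adjusted p = 0.377 by edgeR). SAH 1d-3 was the highest SAH 1d library for each of the 4 receptors.

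**Figure D2:**
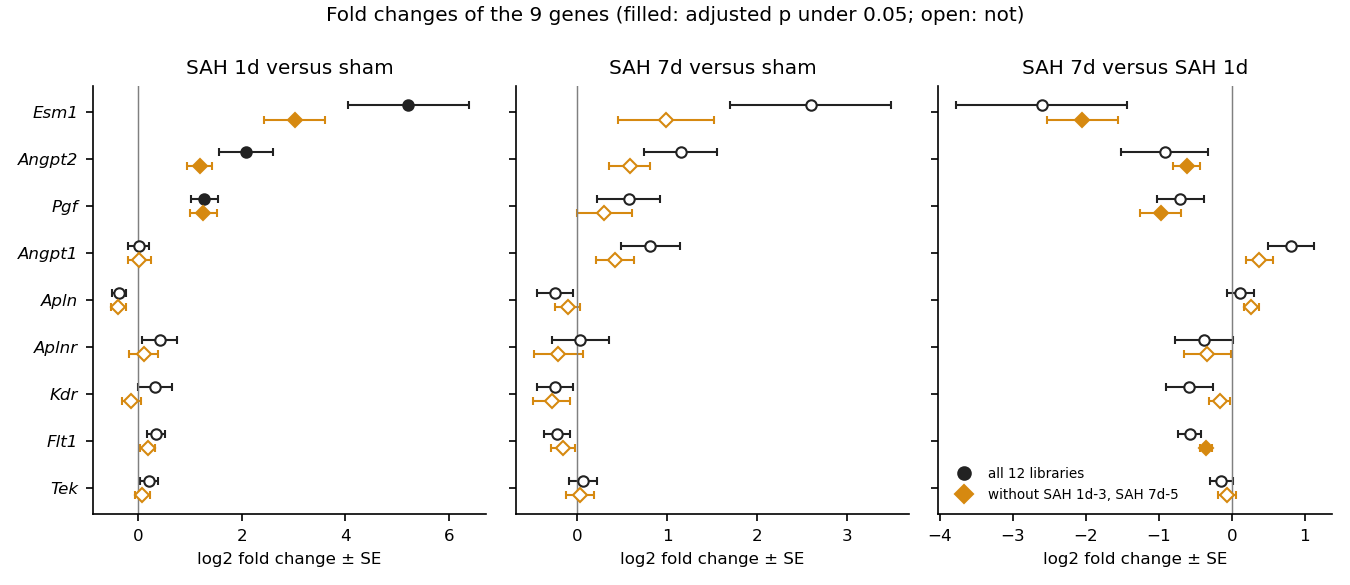
Log2 fold change ± SE of the 9 genes in the 3 comparisons by edgeR, with black circles for all 12 libraries and orange diamonds without SAH 7d-5 and SAH 1d-3, filled where the adjusted p was under 0.05. Esm1, Angpt2 and Pgf are filled in SAH 1d versus sham in both fits, no gene is filled in SAH 7d versus sham, and Esm1, Angpt2, Pgf and Flt1 are filled in SAH 7d versus SAH 1d only without the 2 libraries.

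The sequences before the start of 2 upregulated genes, Esm1 and Pgf, and of Apln, which was not, are shown because VEGF and endothelial activation genes are widely studied as targets of the hypoxia-inducible factors, whose response element has the core ACGTG or GCGTG. The 250 bases before the start were taken from RefSeq (build GRCr8), in which 5 of the 9 genes had an entry: Kdr, Flt1, Pgf, Esm1 and Apln. Capitals mark the core as GCGTG or, where it is on the opposite strand, CACGC.
Esm1, chr2:46609003-46609252, plus strand: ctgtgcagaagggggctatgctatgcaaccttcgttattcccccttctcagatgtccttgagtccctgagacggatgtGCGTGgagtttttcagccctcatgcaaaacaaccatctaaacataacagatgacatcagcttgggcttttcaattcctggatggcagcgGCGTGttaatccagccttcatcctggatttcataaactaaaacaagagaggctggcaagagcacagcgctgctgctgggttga
Pgf, chr6:110557748-110557997, minus strand: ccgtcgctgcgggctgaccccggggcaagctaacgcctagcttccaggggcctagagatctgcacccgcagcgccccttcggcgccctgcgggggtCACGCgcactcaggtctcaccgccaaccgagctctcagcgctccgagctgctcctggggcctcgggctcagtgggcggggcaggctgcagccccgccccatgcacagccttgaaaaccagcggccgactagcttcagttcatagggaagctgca
Apln, chrX:132091247-132091496, minus strand: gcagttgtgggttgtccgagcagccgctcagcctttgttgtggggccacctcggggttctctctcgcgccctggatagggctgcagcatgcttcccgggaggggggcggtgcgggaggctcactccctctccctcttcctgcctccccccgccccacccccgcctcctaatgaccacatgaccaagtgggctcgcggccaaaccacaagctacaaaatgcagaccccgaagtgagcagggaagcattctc
The Esm1 window held GCGTG 2 times, 172 and 83 bases before the start, and the Pgf window 1 time on the opposite strand, 154 bases before it. The Apln window held neither core. Kdr, which was not called, held GCGTG 2 times (145 and 103 bases before the start) and Flt1 1 time on the opposite strand (227 bases before it). ACGTG was in none of the 5 windows. Over all 33469 promoters of the table, searched on both strands in the same 250 bases, GCGTG was in 25.9%, ACGTG in 16.6% and either core in 36.7%. The AP-1 motif TGANTCA (6.34% of all promoters) was in none of the 5 windows, and the ETS motif GGAAGT (19.2%) was in those of Kdr and Flt1. Among further genes that rose at day 1 and are described below, the windows of Adm and Flt4 held neither hypoxia core. That of Angpt4 held GCGTG 1 time. A match here is a run of letters and no measured binding site.

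The balance of the angiopoietins was described by the ratio of Angpt2 to Angpt1 in FPKM within each library. In sham the ratio was 1.14 to 1.88 with a median of 1.67. In SAH 1d it was 1.91 to 23.7 with a median of 4.18, and in SAH 7d 1.36 to 2.44 with a median of 1.87. Every SAH 1d library had a ratio above every sham library, although the lowest, SAH 1d-1, was close to the highest sham library. The ratio reuses the Angpt2 values already called at day 1, so this separation is no further support for that call. The means were 1.62 ± 0.276 (SD, n = 6), 7.20 ± 8.20 and 1.95 ± 0.401. The log2 ratio was on average 1.64 higher in the SAH 1d group than in the sham group and 1.19 higher without SAH 1d-3. SAH 7d-5, in which both angiopoietins were high, had a ratio of 2.44, close to the 2.37 of SAH 7d-1.

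**Figure D3:**
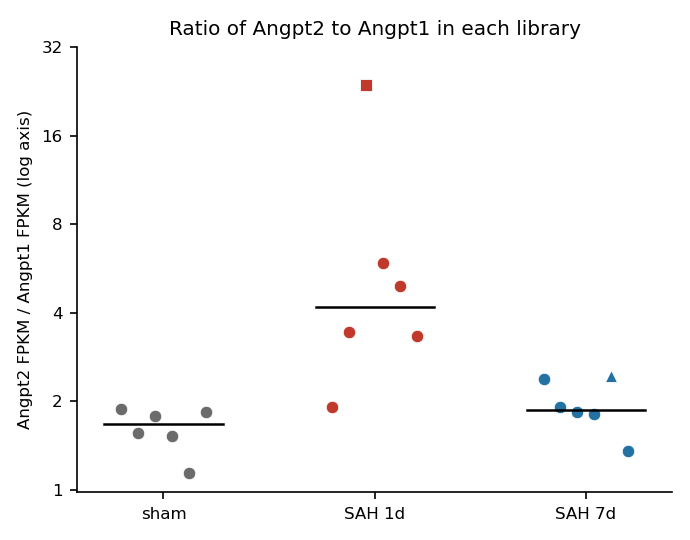
Ratio of Angpt2 to Angpt1 (FPKM divided by FPKM, log axis) in each library of the 3 groups, with lines for the group medians, a square for SAH 1d-3 and a triangle for SAH 7d-5. The sham libraries lie between 1.14 and 1.88, the SAH 1d libraries between 1.91 and 23.7 and the SAH 7d libraries between 1.36 and 2.44.

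Some endothelial markers also rose at day 1. Of the 9 endothelial markers tested, 3 rose, where 14.9% of all tested genes did. They were Vwf, von Willebrand factor, by 1.26 log2 units, Cdh5, the cadherin of endothelial junctions, by 1.01, and the junction protein Esam by 0.88. The other 6 did not pass, and Slco1a4 (−0.45), Cldn5 (−0.38) and Emcn (−0.27) had negative values. The median log2 fold change over the 9 was 0.60. Their summed level was 230 to 425 CPM in the sham group and 321 to 522 CPM in the SAH 1d group. Measured against the mean log2 CPM of these markers in each library, Esm1 was 2.83 log2 units higher in the SAH 1d group than in the sham group, Angpt2 1.25 and Pgf 0.86 higher. On the same scale without that reference, the differences of the group means were 3.24, 1.65 and 1.26 log2 units. All 6 SAH 1d libraries were above all sham libraries for Esm1 relative to the markers, 4 of 6 for Angpt2 and 3 of 6 for Pgf. For Esm1 this separation is again no further support, because it passed the low-count filter mainly through SAH 1d. Relative to the markers, SAH 1d-3 was the highest SAH 1d library for Esm1 (−0.46, group mean −3.51) and Angpt2 (0.86, group mean −0.49). The differences were not computed without SAH 1d-3. These values include Cldn5. With it left out of the markers the differences were 2.75, 1.17 and 0.78, and the SAH 1d libraries above all sham libraries were 5 of 6 for Esm1, 4 of 6 for Angpt2 and 1 of 6 for Pgf. With Emcn or with Slco1a4 left out, the number for Angpt2 was 2 of 6. The receptors relative to the markers differed by −0.21 (Kdr), −0.07 (Flt1), −0.20 (Tek) and −0.13 (Aplnr) log2 units, and Flt1 turned to 0.04 when Vwf was left out. Apln was 0.76 log2 units lower relative to the markers. The receptor and Apln values also include Cldn5. With Cldn5 left out, the receptors differed by −0.29 (Kdr), −0.15 (Flt1), −0.28 (Tek) and −0.20 (Aplnr), and Apln by −0.83. At the same time all 6 neuron markers fell, with a summed level of 6561 to 9645 CPM in sham and 4902 to 6263 CPM in SAH 1d, and 2 of 4 choroid plexus markers rose, with a summed level of up to 64.7 CPM in sham and up to 1037 CPM in SAH 1d. The part of the neuron markers in the results was not tested.

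At day 7, none of the 9 genes differed from the sham group at an adjusted p under 0.05 by edgeR or limma voom, while 0% of all tested genes passed by edgeR. By DESeq2 none of 8 did, and Esm1 was given no adjusted p. At an unadjusted p under 0.05, 3 of the 9 genes (Angpt1, Angpt2 and Esm1) and 2842 of all tested genes (15.4%) were found. Esm1 had 0.174 to 3.63 CPM with a median of 0.303 CPM, and 4 of 6 SAH 7d libraries were above every sham library. Its log2 fold change was 2.60 ± 0.90 (adjusted p = 0.246 by edgeR). Angpt2 was at 5.20 to 26.6 CPM (median 7.40 CPM), again with 4 of 6 libraries above every sham library and with a log2 fold change of 1.15 ± 0.41 (adjusted p = 0.256 by edgeR). Angpt1, which was not called at day 1, was at 2.22 to 8.44 CPM (median 3.17 CPM) with 4 of 6 libraries above every sham library, and its log2 fold change was 0.81 ± 0.33 (adjusted p = 0.286 by edgeR). SAH 7d-5 was the highest library for each of these 3 genes. Without it the log2 fold changes were 0.99 for Esm1, 0.58 for Angpt2 and 0.42 for Angpt1, and none passed.

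The other 6 genes had log2 fold changes between −0.25 (Kdr) and 0.57 (Pgf) at day 7 versus sham. Pgf spanned 0.787 to 3.03 CPM (median 1.40 CPM) and was highest in SAH 7d-5. Kdr was at 12.05 to 20.03 CPM (median 16.2 CPM), with 3 of 6 libraries below every sham library. Apln was at 18.8 to 46.5 CPM (median 39.1 CPM) and Flt1 at 40.4 to 58.0 CPM (median 54.6 CPM), and SAH 7d-5 was the lowest library for both. Tek (27.3 to 41.3 CPM) lay inside its sham range and Aplnr (1.18 to 4.81 CPM) spanned its own, with log2 fold changes of 0.07 ± 0.15 and 0.03 ± 0.31. In SAH 7d-5, then, Pgf, Angpt1, Angpt2, Esm1 and Aplnr were the highest and Flt1 and Apln the lowest of the SAH 7d group, in the library with the high meningeal fibroblast and macrophage markers and low neuron markers. The part of those markers was not tested.

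From SAH 1d to SAH 7d, 2 groups that share no library, none of the 9 genes passed by edgeR with all 12 libraries, where 1.37% of all tested genes did. DESeq2 called 1 of the 7 genes it gave an adjusted p (Flt1, adjusted p = 0.0267), and 5.49% of all tested genes. It gave none to Angpt2 and Esm1. Limma voom with quality weights called 2 of the 9 (Flt1, adjusted p = 0.0130, and Pgf, adjusted p = 0.0190), and 14.7% of all tested genes. By edgeR 4 of the 9 genes (Angpt1, Esm1, Flt1 and Pgf) and 2713 of all tested genes (14.7%) had an unadjusted p under 0.05. Flt1 was the 1 gene of the 9 whose groups did not overlap: all 6 SAH 7d libraries, at 40.4 to 58.0 CPM, were below all 6 SAH 1d libraries, at 62.7 to 118 CPM. Of all tested genes, 3.05% did not overlap between these groups. The log2 fold change of Flt1 was −0.58 ± 0.16 (adjusted p = 0.0992 by edgeR). Esm1 was below every SAH 1d library in 5 of 6 SAH 7d libraries and Pgf in 4 of 6, with log2 fold changes of −2.60 ± 1.17 and −0.71 ± 0.32 (adjusted p = 0.326 and 0.327 by edgeR).

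This comparison depended on the libraries that stood apart. Without SAH 7d-5 and SAH 1d-3, 4 of the 9 genes fell from day 1 to day 7, where 13.6% of all tested genes passed in either direction. They were Esm1 (log2 fold change −2.05 ± 0.49, adjusted p = 0.0172 by edgeR), Pgf (−0.98 ± 0.28, adjusted p = 0.0385 by edgeR), Angpt2 (−0.62 ± 0.18, adjusted p = 0.0405 by edgeR) and Flt1 (−0.36 ± 0.08, adjusted p = 0.0151 by edgeR). Without SAH 7d-5 alone, Esm1 (−4.24, adjusted p = 0.0444 by edgeR) and Pgf (−0.997, adjusted p = 0.0421 by edgeR) passed, as did 8.38% of all tested genes. Kdr, Tek, Aplnr and Apln did not pass in either fit. Angpt1 had the largest positive value of the 9, 0.81 ± 0.32 with all libraries (adjusted p = 0.250 by edgeR), and it was above every SAH 1d library in 4 of 6 SAH 7d libraries.

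The genes of the same pathways that were not among the 9 were taken from 4 lists. Over all tested genes, 25.4% passed at day 1 and 14.9% rose, and counts in lists this short are given as a description only. Of the VEGF ligands and co-receptors, 2 of 7 rose at day 1. Vegfa, the main ligand of Kdr, was at 54.6 to 71.2 CPM in the sham group (median 62.1 CPM) and 67.9 to 98.6 CPM in the SAH 1d group (median 83.0 CPM), with a log2 fold change of 0.40 ± 0.10 (adjusted p = 0.0126 by edgeR). Flt4, the receptor of VEGF-C and VEGF-D, rose by 1.05 ± 0.36 (adjusted p = 0.0475 by edgeR), and without SAH 1d-3 its value was 0.51 with an adjusted p of 0.0529 by edgeR. The call of Flt4 was lost for 10 of the 12 libraries when each was left out in turn. Vegfb, Vegfc, Vegfd, Nrp1 and Nrp2 did not pass, with log2 fold changes from −0.06 to 0.44. Of the Tie receptor pathway, 1 of 5 rose, the angiopoietin Angpt4, by 1.30 ± 0.29 (adjusted p = 0.00705 by edgeR), from 0.278 to 0.595 CPM in the sham group (median 0.523 CPM) to 0.790 to 2.11 CPM (median 1.03 CPM). Tie1, Ptprb, Svep1 and Foxo1 did not pass, with values from 0.01 to 0.36. Of the apelin pathway, Apela had no row under that symbol, and Mme, the peptidase neprilysin, did not pass (−0.96, adjusted p = 0.0875 by edgeR).

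**Figure D4:**
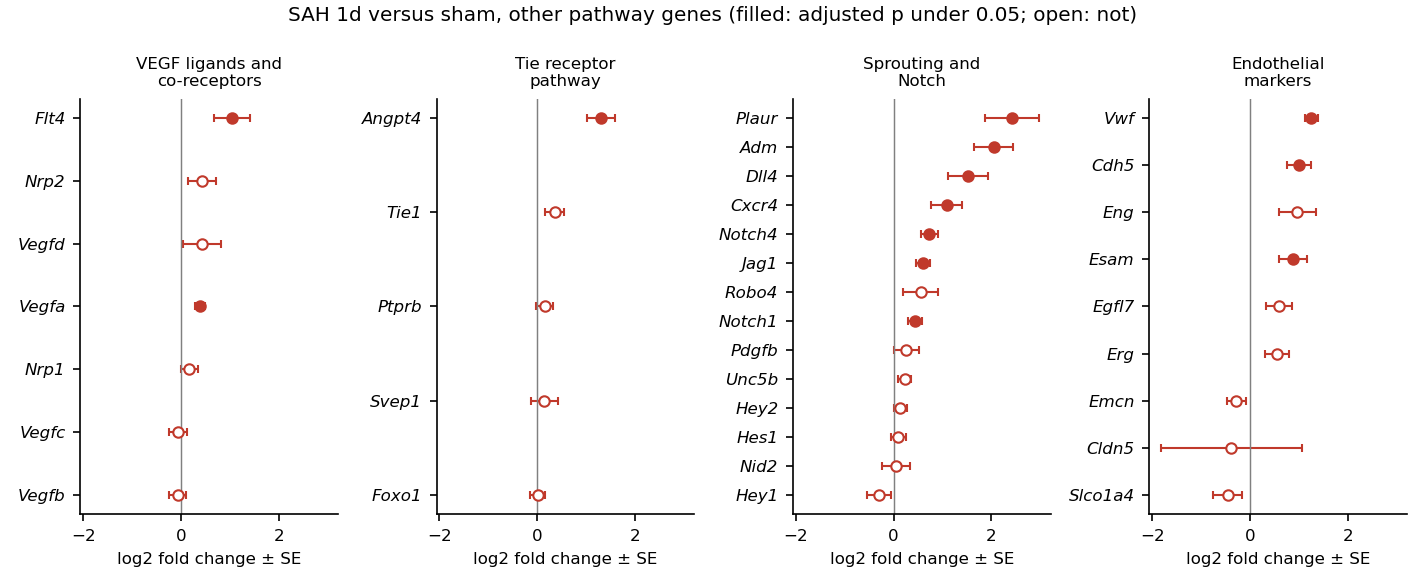
Log2 fold change ± SE in SAH 1d versus sham for the genes of the VEGF, Tie and sprouting lists and for 9 endothelial markers, by edgeR, filled where the adjusted p was under 0.05. Filled points are 2 of 7, 1 of 5, 7 of 14 and 3 of 9, and all of them are above 0.

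Of the 14 genes of endothelial sprouting and Notch signalling, 7 rose at day 1 and none fell, where 14.9% of all tested genes rose. With all libraries the largest changes were in Plaur, the urokinase receptor (2.42 ± 0.55), Adm, the vasodilator peptide adrenomedullin (2.05 ± 0.40), Dll4, the Notch ligand of tip cells (1.53 ± 0.41), and the chemokine receptor Cxcr4 (1.09 ± 0.31). Notch4, an endothelial Notch receptor, rose by 0.73 ± 0.17 and the ligand Jag1 by 0.60 ± 0.14. The seventh was Notch1 (0.44 ± 0.13, named after its value was seen). Hey1 (−0.30), Hey2 (0.14), Hes1 (0.09), Unc5b, Robo4, Pdgfb and Nid2 did not pass, with log2 fold changes from −0.30 to 0.55. They too were named after their values were seen. SAH 1d-3 was the highest SAH 1d library for Plaur (21.0 CPM, group median 2.96 CPM), Dll4 (24.3 CPM, median 6.80 CPM) and Cxcr4 (9.54 CPM, median 3.68 CPM). Without it the log2 fold changes were 1.40 for Plaur, 1.66 for Adm, 0.91 for Dll4 and 0.75 for Cxcr4, so that Adm and not Plaur had the larger value, and these 4 still passed. The call of Notch1 was lost for 8 of the 12 libraries when each was left out in turn (adjusted p up to 0.0692 by edgeR), and that of Cxcr4 without sham-3 (adjusted p = 0.0504 by edgeR). Adm spanned 1.06 to 2.02 CPM in the sham group (median 1.43 CPM) and 2.23 to 13.4 CPM in the SAH 1d group (median 4.15 CPM). Its groups did not overlap, as was so for 13.3% of all tested genes. Of the same list, the groups of Plaur, Jag1 and Notch4 did not overlap either. The median log2 fold change of the list was 0.50, against 0.01 over all tested genes. Plaur and Cxcr4 are also made by leukocytes. Of the 4 neutrophil markers, the 1 that could be tested, S100a9, rose at day 1 by 3.98 log2 units, and the 4 summed to 0.0991 to 2.13 CPM in sham and 1.07 to 41.9 CPM in SAH 1d. Of the 6 microglia and macrophage markers, Cd68 rose (1.86) and P2ry12 fell (−1.19), and the part of these cells was not tested. With all 18 libraries in 1 fit, 4 of the 10 pathway calls remained (Adm, Dll4, Flt4 and Notch4), while all 3 of Esm1, Angpt2 and Pgf did.

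None of the 28 pathway genes tested passed at day 7 versus sham or at day 7 versus day 1 by edgeR with 12 libraries, and 6 and 5 of them had an unadjusted p under 0.05, as did 15.4% and 14.7% of all tested genes. By limma voom, none passed at day 7 versus sham and 5 at day 7 versus day 1, where 14.7% of all tested genes passed. DESeq2 called Adm (1.17, adjusted p = 0.0395) and Angpt4 (2.69, adjusted p = 0.00204) higher at day 7 than in sham. The adjusted p by edgeR was 0.214 for both. In this comparison DESeq2 called 459 of all 18444 tested genes. SAH 7d-5 was the highest SAH 7d library for Adm (7.29 CPM, group mean 3.37 ± 2.04 CPM, SD). It was also the highest for Angpt4 (9.74 CPM, group mean 3.12 ± 3.39 CPM, SD). The part of SAH 7d-5 in these 2 DESeq2 calls was not tested. Between day 1 and day 7, Vegfa (−0.84 ± 0.19, adjusted p = 0.0510 by edgeR) and Dll4 (−1.93 ± 0.44, adjusted p = 0.0522 by edgeR) were just outside the threshold, and these 2 were called by DESeq2. Without SAH 7d-5, 5 pathway genes passed, against 8.38% of all tested genes, and all were lower at day 7: Vegfa (−0.72), Dll4 (−1.98), Plaur (−2.52), Jag1 (−0.66) and Notch1 (−0.49).

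The genes whose log2 CPM followed each upregulated gene most closely over the 18 libraries were found among 14078 candidates, as a description over points that share their groups and include both distant libraries. For Esm1 they were Pa2g4 (Pearson r = 0.944), Fpgs (r = 0.943) and Sap30 (r = 0.940). For Angpt2 they were Ier3 (r = 0.969), an immediate early gene, Chsy1 (r = 0.961), a chondroitin synthase, and Adamts9 (r = 0.959), a secreted metalloprotease. For Pgf they were Cela1 (r = 0.915), Lysmd3 (r = 0.908) and Smarce1 (r = 0.902). Spearman's rho was 0.878 for Esm1 with Fpgs, the lowest of the 9 pairs, and 0.944 for Esm1 with Sap30, the highest. Over the 16 libraries without SAH 7d-5 and SAH 1d-3, Pearson's r was 0.835 for Esm1 with Fpgs, the lowest, and 0.938 for Pgf with Cela1, the highest. The order of the candidates changed without these 2 libraries. The 3 genes then ranked 8, 43 and 17 for Esm1 and 10, 12 and 38 for Angpt2, while those for Pgf ranked 1, 2 and 5.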

How the data were processed

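RNA from the cortex of 18 rats was sequenced, 6 per group. The authors removed adapter and low-quality reads and had the rest aligned to Rnor_6.0 (release 95), and the submitters' processing notes name fastp, HISAT2 and DESeq2 1.16.1. Those notes also name a mouse build, but the gene identifiers are rat. The counting program is not given in the sources used here. The deposited counts are whole raw counts per gene and library. The deposited FPKM values were computed by the authors from the same alignments. The labelled library kit does not mark strand, so antisense reads count toward a gene.

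Counts were tested with edgeR 4.0.16 (filterByExpr over 18 libraries, TMM, quasi-likelihood F test, 12 libraries per comparison, two-sided, Benjamini-Hochberg adjustment over 18444 genes) in R 4.3.3, and the scripts were tested on simulated data. SE is the log2 fold change divided by the root of F. FPKM served only for levels between genes, the angiopoietin ratio and alternatives. Alternatives were DESeq2 1.42.0, limma 3.58.1 (voom, and FPKM with a pseudocount of 1 or 0.1 and a mean of at least 0.5), other filters and scaling, all libraries in 1 fit, a replicate block and left-out libraries. The fits without SAH 1d-4 and SAH 1d-6, and the ratio without SAH 7d-5 and SAH 1d-3, were added after seeing the data. The genes, lists and tests were chosen with earlier results of these data known. Named genes are the 9 genes, the genes of the VEGF, Tie and apelin lists (1 of them is not reported here), the 6 largest called sprouting genes and the 3 most correlated genes per called gene. The replicate numbers did not pair libraries (correlation of deviations −0.25 to 0.20 over 18 same-numbered pairs, 1 pair over 0.1).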

Additional observations from a re-analysis of the deposited data

Results flagged for a closer look

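Of 30 groups of 6 libraries tested for a single distant library (Dixon's test, gap over range above 0.625), 12 had one. Chance gives about 1 in 20 for independent groups with normally distributed values. The values here were not logged and all groups came from the same 18 libraries, so an excess over chance cannot be judged. SAH 1d-3 was the highest of its group for Kdr (55.9 CPM, others 15.3 to 19.8 CPM), Flt1 (118 CPM, others 62.7 to 82.3 CPM), Angpt2 (62.4 CPM, others 6.43 to 12.4 CPM), Esm1 (24.9 CPM, others 0.358 to 1.93 CPM) and the ratio of Angpt2 to Angpt1 (23.7, others 1.91 to 5.90). SAH 7d-5 was the highest for Angpt1 (8.44 CPM, others 2.22 to 3.43 CPM), Angpt2 (26.6 CPM, others 5.20 to 7.80 CPM) and Esm1 (3.63 CPM, others 0.174 to 0.342 CPM). It was the lowest for Flt1 (40.4 CPM, others 52.3 to 58.0 CPM) and Apln (18.8 CPM, others 37.5 to 46.5 CPM). In the sham group, sham-1 was the highest for Kdr (31.8 CPM, others 14.9 to 18.7 CPM) and sham-5 for Pgf (1.89 CPM, others 0.680 to 1.06 CPM).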

How the results depend on the processing

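The calls of Angpt2 and Pgf at day 1 held in all 24 alternatives, and that of Esm1 in those that gave an adjusted p except limma on log2(FPKM + 1), with and without a filter (adjusted p = 0.111 and 0.170). DESeq2 gave Esm1 no adjusted p, and the filter of at least 10 counts in every library removed it. The count of the 9 genes called at day 1 was 2 to 4 over the alternatives and 0 at day 7 versus sham in each. For day 7 versus day 1 the count was 0 with all libraries, 1 by DESeq2, 2 by limma voom, 4 without SAH 7d-5 and SAH 1d-3, and 0 to 2 when 1 library was left out, 2 being without SAH 7d-5. Directions turned for values that were not called. Kdr at day 1 versus sham was −0.13 without SAH 7d-5 and SAH 1d-3, and −0.13 to 0.54 with 1 library left out. Angpt1 at day 1 was −0.00073 with DESeq2 size factors and −0.082 to 0.14 with 1 left out. Aplnr at day 7 versus sham was −0.18 by limma voom, −0.050 with the replicate block and −0.0022 on log2(FPKM + 0.1). Without SAH 7d-5 Aplnr was −0.21, and −0.21 to 0.19 with 1 left out. The replicate block left the counts of called genes at 3, 0 and 0. The cause of these changes was not tested.

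Over all tested genes, 4684 were called at day 1 versus sham, against 2462 with all 18 libraries in 1 fit, and 1224 were DEGs, against 473 on log2(FPKM + 1) without a filter. At day 7 versus sham the counts were 0 against 459 by DESeq2 (370 DEGs), and at day 7 versus day 1 252 against 29 with the replicate block and 2718 by limma voom (DEGs 128, 27 and 552). Pathway genes called were 10, 0 and 0, and 4 to 10, 0 to 2 and 0 to 5 over the alternatives. Depth limits Esm1 most, with at most 8 counts in any sham library.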

Other observations

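The 8 mural cell markers, which include the pericyte genes Pdgfrb, Rgs5 and Kcnj8, were not called at day 1 versus sham, with log2 fold changes from −0.37 to 0.46 and a median of 0.01. Their summed level was 156 to 276 CPM in the sham group and 181 to 192 CPM in the SAH 1d group. The sham library sham-1 was the highest of its group for Kdr (31.8 CPM), Flt1 (90.7 CPM), Tek (44.7 CPM) and Apln (63.5 CPM), and its 9 endothelial markers summed to 425 CPM, the highest of the sham group. Its mural (276 CPM), astrocyte (3273 CPM), oligodendrocyte (17160 CPM) and microglia and macrophage (287 CPM) sums were also the highest of that group. Its neuron sum (6561 CPM) was the lowest. Esm1 was at 0.10 CPM in the same library, below the sham median of 0.138 CPM.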
